A study of Mus musculus with 12 samples.

Results

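The small leucine-rich proteoglycans and versican were followed as 9 genes of the 35275 in the count file, each taken by its gene symbol: decorin (Dcn), biglycan (Bgn), lumican (Lum), fibromodulin (Fmod), osteoglycin (Ogn), asporin (Aspn), the proline- and arginine-rich end leucine-rich repeat protein (Prelp), podocan (Podn) and versican (Vcan). RNA-Seq was performed on 12 libraries of cultured cardiac fibroblasts at passage 2 from hearts of C57BL/6 mice aged 12 weeks whose Smad7 alleles were floxed. Smad7 is an inhibitory Smad, which TGF-β itself induces and which dampens TGF-β signaling. All 4 groups had 3 libraries and carried the floxed alleles: control cells received a control adenovirus (GFP in the labels, empty in the study's methods) and Smad7-KO cells a Cre-expressing adenovirus, for 48 hours at an MOI of 100, so that virus and deletion go together. Each was either left unstimulated or given TGF-β1 at 10 ng/ml, for 2 hours by the sample labels and 4 hours by the protocol. Nothing in the labels ties a library to an animal, so p-values measure the spread between these samples only. All 9 members passed the filter on low counts, which kept 15150 genes.

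Small leucine-rich proteoglycans are secreted proteins built of leucine-rich repeats, and most carry chondroitin, dermatan or keratan sulfate chains. They bind collagen and set how fibrils assemble, and decorin, biglycan, asporin and fibromodulin also bind TGF-β. Versican is a large chondroitin sulfate proteoglycan that binds hyaluronan and makes up loose, hydrated matrix. Fibroblasts are a main source of these proteins in the heart.

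Levels between genes were compared per transcript length as FPKM. Biglycan was the highest member in all 12 libraries, with an FPKM of 1467 ± 392 (SD, n = 3) in unstimulated control cells. It was followed by Prelp (353 ± 111), decorin (294 ± 4.73), fibromodulin (94.4 ± 24.8) and osteoglycin (20.1 ± 5.3). Asporin (6.94 ± 1.75), podocan (3.34 ± 1.13), versican (1.02 ± 0.468) and lumican (0.421 ± 0.0657) made up the low end. The neighbours in this order did not overlap, except Prelp and decorin, whose order held in 2 of the 3 control libraries. In Smad7-KO cells decorin (365 ± 24.2) stood above Prelp (322 ± 18.2) in all 3 unstimulated libraries and versican (1.96 ± 0.0414) overlapped podocan (2.08 ± 0.28). Lumican rested on 10 to 43 counts a library, the fewest among the members, so counting error weighs most on it. Between the unstimulated control libraries versican varied more, with a coefficient of variation of 40.7% against 11.1% for lumican (normalized counts).

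The members lie in part side by side in the genome (GRCm38). Asporin (chromosome 13, 49544443 to 49567557, plus strand) and osteoglycin (49608071 to 49624500, plus strand) share a 119.7 kb cluster with Ecm2 and osteomodulin (Omd). Decorin (chromosome 10, 97479500 to 97518162, plus strand) and lumican (97565501 to 97572703, plus strand) share a 203 kb cluster with keratocan (Kera) and epiphycan (Epyc). Prelp (chromosome 1, 133910304 to 133921414, minus strand) and fibromodulin (134037254 to 134048277, plus strand) share a 151.1 kb cluster with opticin (Optc). Biglycan (chromosome X, 73483602 to 73495933, plus strand), podocan (chromosome 4, 108014791 to 108096445, minus strand) and versican (chromosome 13, 89655312 to 89742509, minus strand) stand apart. Asporin shares exonic bases with the antisense gene Cenpp, which had at most 53 counts in a library against at least 139 for asporin, and whether counting used strand is not given in the sources used here.

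Promoters are shown for asporin, osteoglycin and fibromodulin, which moved together with Smad7 loss, and for versican, which moved the other way. Each is the RefSeq sequence (GRCm38.p6) of the 250 bases before the annotated start, read 5′ to 3′ on the gene's strand, with TATAAA, the GC box GGGCGG and the TEAD-type letters GGAATG in capitals (CCGCCC is GGGCGG on the opposite strand). The RefSeq start of osteoglycin lies upstream of the gene start in the files.
Aspn, chr13:49544193-49544442, plus strand: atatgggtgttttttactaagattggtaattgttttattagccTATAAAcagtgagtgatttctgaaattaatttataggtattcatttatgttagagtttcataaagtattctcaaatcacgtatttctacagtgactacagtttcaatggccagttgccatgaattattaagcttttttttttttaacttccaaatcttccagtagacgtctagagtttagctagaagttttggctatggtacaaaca
Ogn, chr13:49607765-49608014, plus strand: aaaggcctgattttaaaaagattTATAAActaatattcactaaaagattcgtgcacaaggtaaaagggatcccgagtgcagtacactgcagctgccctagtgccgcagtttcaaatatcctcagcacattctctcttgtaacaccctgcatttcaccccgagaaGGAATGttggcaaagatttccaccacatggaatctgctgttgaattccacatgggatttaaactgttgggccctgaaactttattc
Fmod, chr1:134037004-134037253, plus strand: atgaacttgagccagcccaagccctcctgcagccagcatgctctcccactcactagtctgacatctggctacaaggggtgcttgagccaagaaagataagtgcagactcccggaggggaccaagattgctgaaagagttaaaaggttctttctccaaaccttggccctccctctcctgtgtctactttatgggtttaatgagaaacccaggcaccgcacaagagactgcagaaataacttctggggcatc
Vcan, chr13:89742513-89742762, minus strand: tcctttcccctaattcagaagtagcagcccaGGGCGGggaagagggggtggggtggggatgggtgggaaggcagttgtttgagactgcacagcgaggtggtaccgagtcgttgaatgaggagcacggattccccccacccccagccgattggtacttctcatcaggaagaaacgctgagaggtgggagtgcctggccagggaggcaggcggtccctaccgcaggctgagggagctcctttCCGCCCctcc
The asporin window had a GC content of 30% and the osteoglycin window 42%, against a median of 52.4% over 32851 promoters. Each held a TATAAA on the gene's strand, which 7.59% of all promoters do, and osteoglycin also held GGAATG, which 12.6% do on either strand. Fibromodulin had 51.2% GC and none of the searched letters. Versican had 62.4% GC and 2 GC boxes, which 32.7% of promoters hold at least once on either strand. The neighbours Ecm2 and osteomodulin were also low in GC, at 40% and 38.4%, with 1 GC box and none, whereas biglycan had 64.4% with 3 GC boxes, and Prelp had 55.6%. The AP-1 letters TGANTCA (6.75% of promoters) and the Smad elements GTCTAGAC (0.167%) and CAGACA (17.1%), searched on both strands, were not found in the windows of the 7 members with an entry, which says only that these letters are not there. No pair of the printed motifs overlapped.

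Libraries held 19056916 to 25371321 counts, of which the 9 members took 0.613 ± 0.154% in unstimulated control cells, 0.665 ± 0.0362% in TGF-β1-treated control cells, 0.534 ± 0.0109% in Smad7-KO cells and 0.535 ± 0.0195% in TGF-β1-treated Smad7-KO cells (mean ± SD, n = 3 each). Smad7 itself had 1305 to 1831 counts in control and 578 to 716 in Smad7-KO libraries, and 2921 to 3695 against 1547 to 2025 with TGF-β1. The remaining reads fell by 1.34 (unstimulated) and 0.92 (TGF-β1) on the log2 scale, and their position within the gene is not known from counts per gene. Of 11 known TGF-β targets 7 rose with TGF-β1 in control and 8 in Smad7-KO cells, such as Pmepa1 (+2.16 and +2.56).

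The cultures held reads of other cell types beside those of fibroblasts, and in bulk samples fewer cells of a type and less RNA per cell cannot be told apart. The summed level of 9 macrophage genes (15374 to 25447 CPM) exceeded that of 11 fibroblast genes (7989 to 11796 CPM) in each library, with Lyz2 alone at 12409 ± 3386 CPM in control cells. Counts of marker genes that rose or fell with Smad7 loss stand beside 12.1% and 13.7% of all tested genes without stimulation. With TGF-β1 these shares were 5.72% and 7.23%. With Smad7 loss 4 of 9 macrophage genes passed as higher in unstimulated and 3 in TGF-β1-treated cells, and none passed as lower. Without stimulation 3 of the 9 had negative log2 values, and with TGF-β1 all 9 were positive. Of 11 fibroblast genes 5 and 2 fell, among them Thy1 (−1.55 and −1.34) and Tcf21 (−1.30 and −0.88). None of the 11 passed as higher, and 3 and 2 of them had positive log2 values. Unstimulated, Col1a1 had 1713 ± 615 CPM without and 1694 ± 48.1 CPM with Smad7 loss. With TGF-β1 it had 2195 ± 154 and 1804 ± 103 CPM. Lyz2 and Col1a1 stand here as defining genes, picked with their values known. The 10 endothelial genes summed to 278 to 332 CPM in control against 46.3 to 58.6 CPM in Smad7-KO libraries, and of the 9 tested 6 fell and 1 rose in both comparisons, with Pecam1 at −4.33 and −4.23. Of 7 tested epicardial and mesothelial genes 5 and 3 fell and their sum went from 264 to 313 CPM in control to 168 to 212 CPM in Smad7-KO libraries. The sums overlapped for smooth muscle and pericyte genes (37.5 to 75.1 CPM in control, 41.7 to 52.7 CPM in Smad7-KO), and cardiomyocyte genes had 29 to 78.1 CPM and 18.9 to 25.7 CPM. No listed marker had 0 counts in all libraries. The part of these cell types in the results on the members was not tested.

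Unstimulated control cells were the most variable group. The coefficient of variation was larger there than in unstimulated Smad7-KO cells for 9 of 9 members, with a median of 20.9% against 5.53%. Control library 2 was the lowest of its group for 7 members and control library 3 the highest for 7. Library 2 also had the smallest TMM factor of all libraries (0.919) and library 3 the largest (1.04).

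**Figure D1:**
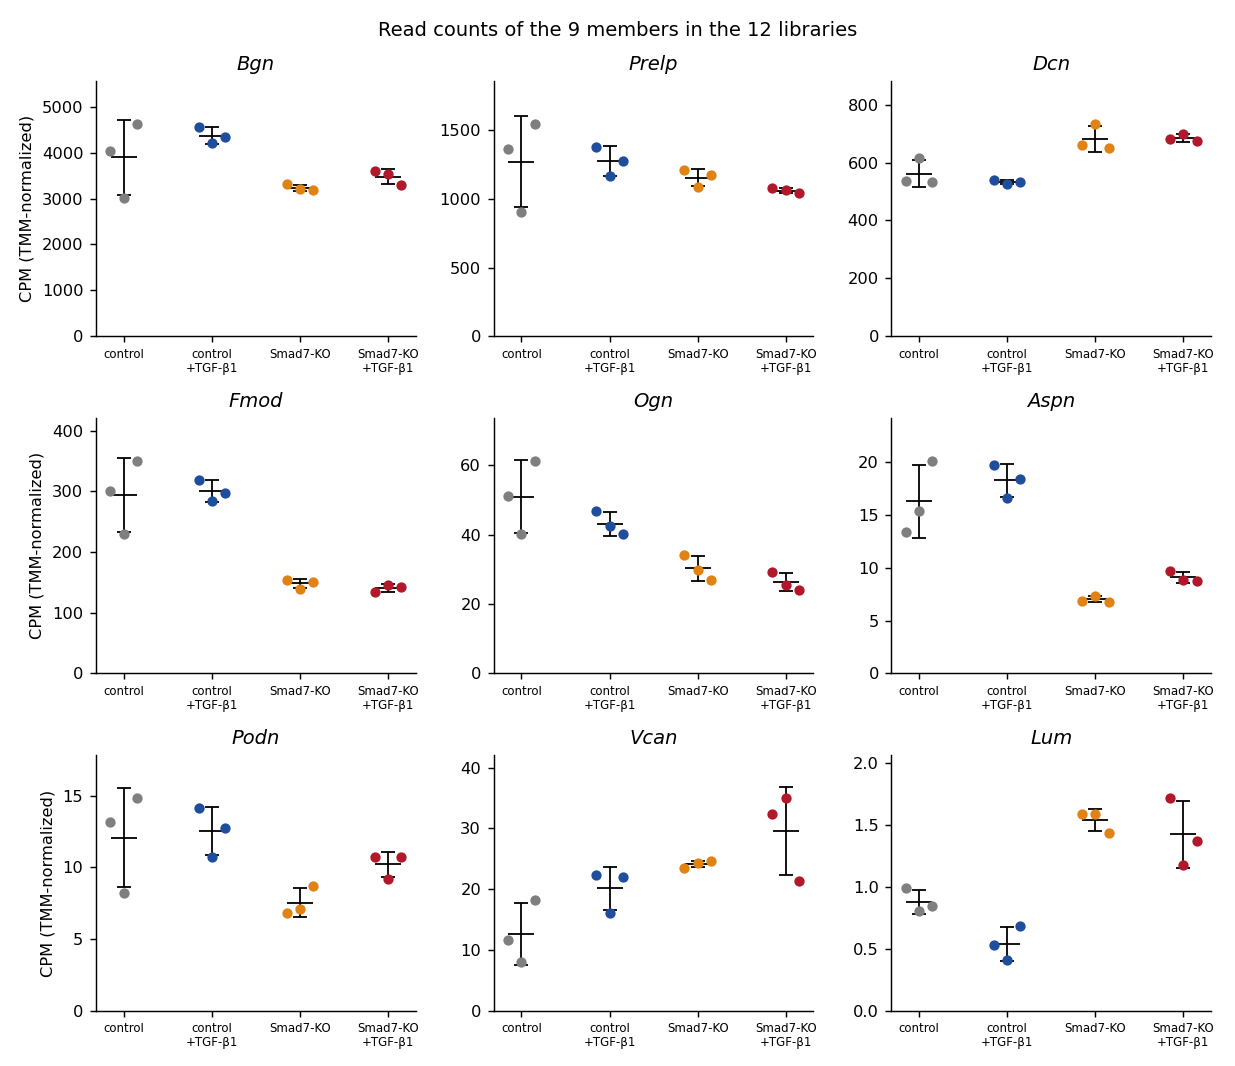
TMM-normalized CPM of each member (vertical axes, from 0) in the 4 groups (horizontal), with 1 point per library and the mean and SD of 3 libraries in black. Fibromodulin and asporin sit lower in the 6 Smad7-KO libraries than in the 6 control libraries, and decorin and lumican sit higher.

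Smad7 loss was examined without stimulation to ask what the inhibitory Smad does to these genes at baseline. Of the 9 members 4 were lower in Smad7-KO cells and 3 were higher, against a background of 13.7% of all tested genes called lower and 12.1% called higher (edgeR quasi-likelihood test, Benjamini-Hochberg adjusted p of 0.05 or less). The libraries of the groups did not overlap for 6 of 9 members, against 41.3% of all tested genes. The median log2 fold change over the 9 members was −0.27, and −0.02 over all tested genes. Decorin and asporin, which belong to the same structural class, moved in opposite directions, as did lumican and fibromodulin.

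Fibromodulin, a keratan sulfate proteoglycan that organizes collagen fibrils, had 300.4, 230.2 and 350.3 CPM in the control libraries and 154, 139.7 and 151 CPM in the Smad7-KO libraries. Each Smad7-KO library lay below each control library. The difference was 1.98-fold (log2 −0.99, SE 0.14, adjusted p = 0.00085, edgeR). Leaving out any single library or using any other setting kept this call, with log2 values of −1.13 to −0.84.

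Asporin, which binds collagen and TGF-β, had 13.4, 15.4 and 20.2 CPM in control and 6.89, 7.34 and 6.81 CPM in Smad7-KO libraries. The groups stood apart by a gap wider than the range of the Smad7-KO libraries. Its fall of 2.33-fold (log2 −1.22, SE 0.15, adjusted p = 0.000483, edgeR) was the largest among the 9 members in this comparison, and its call also held in all 23 alternatives run.

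Osteoglycin, a keratan sulfate proteoglycan also called mimecan, had 51.0, 40.3 and 61.3 CPM in control and 34.1, 29.8 and 26.9 CPM in Smad7-KO libraries. The groups did not overlap, although the lowest control library came near the highest Smad7-KO library. The log2 fold change was −0.75 (SE 0.15, adjusted p = 0.00703, edgeR), and the call held in 22 of 23 alternatives.

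Podocan, a member that binds collagen, had 13.1, 8.23 and 14.8 CPM in control and 6.79, 7.08 and 8.68 CPM in Smad7-KO libraries. Control library 2 lay below the highest Smad7-KO library, so the groups overlapped. The log2 fold change was −0.69 (SE 0.21, adjusted p = 0.0344, edgeR), and the call held in 10 of 23 alternatives. Without control library 2 it was −0.89 (adjusted p = 0.00226).

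Versican had 11.7, 8 and 18.1 CPM in control and 23.5, 24.3 and 24.6 CPM in Smad7-KO libraries. The Smad7-KO libraries were all higher and lay within a narrow range, whereas the control libraries spread widely. The log2 fold change was +0.93 (SE 0.27, adjusted p = 0.0300, edgeR), and the call held in 14 of 23 alternatives. Versican has the longest exonic length of the members, 12427 bases against 1886 to 3636 for the others. When each library's trend on gene length was removed, its log2 fold change was +0.33 (adjusted p = 0.0556), so that a length-dependent difference between libraries cannot be told apart from a change of the gene by this value. Without control library 2 the log2 fold change was +0.69 (adjusted p = 0.0546), and without control library 3 it was +1.29 (adjusted p = 0.00128).

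Decorin (Dcn), the dermatan sulfate proteoglycan that binds the surface of collagen fibrils, had 536, 615 and 532 CPM in control and 659.9, 735 and 651 CPM in Smad7-KO libraries. The groups did not overlap. The rise was 1.22-fold (log2 +0.28, SE 0.10, adjusted p = 0.0499, edgeR), at the threshold, and it was called in 7 of 23 alternatives. Without control library 2, the highest control library for decorin, it was +0.36 (adjusted p = 0.00878), and with the length trend removed +0.54 (adjusted p = 0.000678).

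Lumican, the keratan sulfate neighbour of decorin, had 0.986, 0.800 and 0.844 CPM in control and 1.59, 1.59 and 1.43 CPM in Smad7-KO libraries. The groups did not overlap, on 14 to 22 against 32 to 37 counts. The log2 fold change was +0.80 (SE 0.27, adjusted p = 0.0465, edgeR), called in 5 of the 21 alternatives that gave a value.

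Biglycan, a chondroitin and dermatan sulfate proteoglycan close to decorin in sequence, had 4045, 3019.6 and 4632 CPM in control and 3313, 3211 and 3186 CPM in Smad7-KO libraries. Control library 2 lay below all 3 Smad7-KO libraries, so the groups overlapped. The log2 difference was −0.27 (95% interval −0.58 to 0.04, adjusted p = 0.166, edgeR) and did not pass the test. Without control library 2 the value for Bgn was −0.42 (adjusted p = 0.00691), and without control library 3 it was −0.12 (adjusted p = 0.434). Prelp, a basic member that binds heparan sulfate and collagen, had 1359, 906 and 1546 CPM against 1207, 1083 and 1171 CPM, a log2 difference of −0.14 (95% interval −0.50 to 0.22, adjusted p = 0.531). Without control library 2 that difference was −0.33 (adjusted p = 0.0332), and without control library 3 it was +0.03.

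Smad7 loss was then examined in TGF-β1-treated cells. Of the 9 members 3 were lower and 2 were higher, against 7.23% and 5.72% of all tested genes. The groups did not overlap for 8 of 9 members, against 44.9% of all tested genes. The median coefficient of variation of the members was 8.49% in TGF-β1-treated control cells, against the 20.9% without stimulation. The median log2 fold change was −0.29 over the 9 members and −0.02 over all tested genes. This comparison and the unstimulated one share no library. Both were read from the same fit of all 12 libraries, so they share its estimate of the spread. Whether their libraries came from shared cultures is not given in the labels.

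Fibromodulin had 319, 283 and 296 CPM in the control libraries and 133, 146 and 142 CPM in the Smad7-KO libraries. Asporin had 19.8, 16.7 and 18.4 CPM against 9.73, 8.82 and 8.78 CPM. Osteoglycin had 46.7, 42.5 and 40.0 CPM against 29.1, 25.6 and 24.0 CPM. None of the 3 genes overlapped between the groups. Their log2 fold changes were −1.09 (SE 0.14, adjusted p = 0.00066), −1.0 (SE 0.15, adjusted p = 0.00174) and −0.71 (SE 0.15, adjusted p = 0.0116). The calls of fibromodulin and asporin held in all 23 alternatives and that of osteoglycin in 21.

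Lumican had 0.526, 0.407 and 0.68 CPM in control and 1.72, 1.18 and 1.37 CPM in Smad7-KO libraries, on 10 to 14 against 26 to 43 counts. It was higher in each Smad7-KO library, by 2.65-fold (log2 +1.41, SE 0.28, adjusted p = 0.00738, edgeR), and was called in all 21 alternatives that gave a value. Decorin had 538, 526 and 533 CPM against 682, 699 and 674 CPM. The groups stood apart, with a log2 fold change of +0.36 (SE 0.10, adjusted p = 0.0285, edgeR). It was called in 10 of 11 other settings and in all 6 fits without a library outside the comparison, but in 0 of 6 fits without one of its own libraries, where the log2 value stayed at 0.35 to 0.39.

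Podocan had 14.1, 10.7 and 12.7 CPM against 10.7, 9.18 and 10.7 CPM, and its log2 difference of −0.29 (95% interval −0.74 to 0.15, adjusted p = 0.352) did not pass the test. Its groups were apart by less than 0.1 CPM. Versican had 22.3, 16.1 and 22 CPM against 32.4, 35.0 and 21.3 CPM. Smad7-KO library 3 fell among the control libraries, and the log2 difference was +0.56 (95% interval −0.02 to 1.13, adjusted p = 0.187), and +0.13 (Vcan, adjusted p = 0.458) with the length trend removed. Biglycan (4563, 4204 and 4340.1 against 3601, 3539 and 3297 CPM) and Prelp (1379, 1163 and 1273 against 1075, 1061 and 1041 CPM) were lower in each Smad7-KO library, with log2 differences of −0.33 (95% interval −0.64 to −0.02, adjusted p = 0.154) and −0.26 (95% interval −0.63 to 0.10, adjusted p = 0.308) that missed the threshold over all genes.

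**Figure D2:**
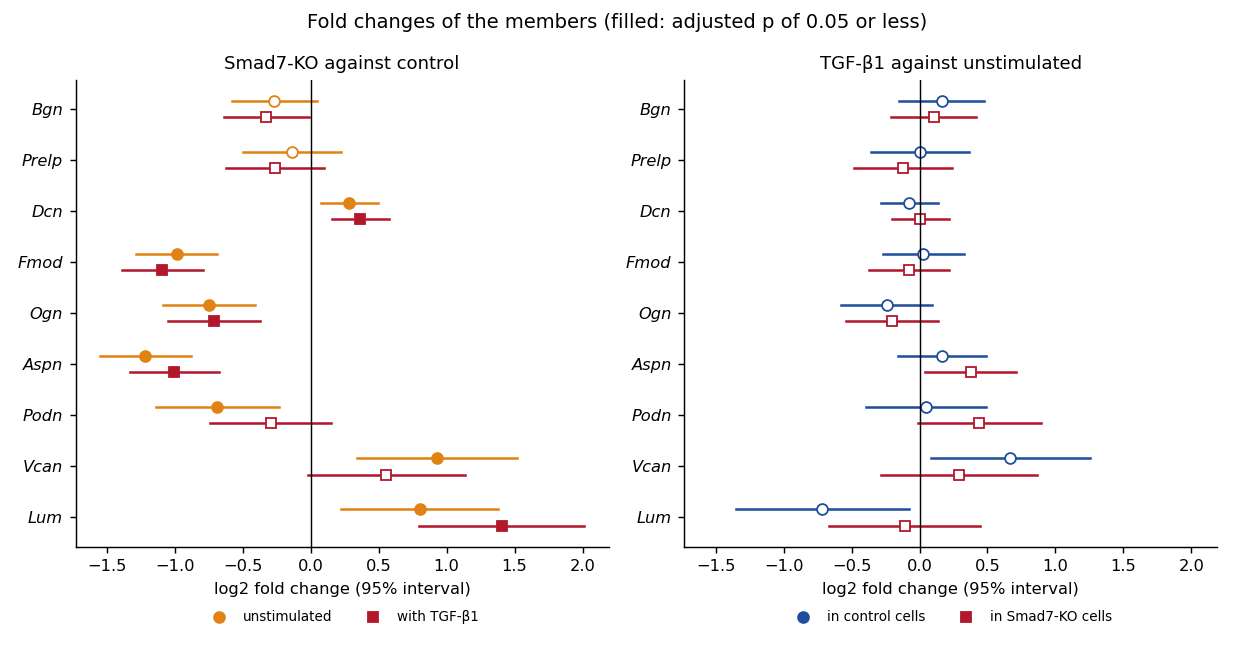
Log2 fold change (horizontal) of each member with its 95% interval, for Smad7-KO against control (left) and TGF-β1 against unstimulated (right), with filled symbols where the adjusted p was 0.05 or less. Fibromodulin, osteoglycin and asporin lie left of 0 and decorin and lumican right of 0 in both Smad7-KO comparisons, and no member is filled on the right.

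The make-up of the members' transcripts was compared as shares of their summed FPKM, a total that also moves with biglycan. Decorin made up 13.7 ± 3.79% (mean ± SD, n = 3) of the members' summed FPKM in control cells and 18.4 ± 1.28% after Smad7 loss. Control library 2 (18.0%) lay within the range of the unstimulated Smad7-KO libraries (17.5% to 19.9%). With TGF-β1 the shares were 11.8 ± 0.395% and 17.9 ± 0.474%. Fibromodulin made up 4.19% and 2.42%, and 4.00% and 2.23% with TGF-β1, while biglycan kept 61.9% to 68.3% of the total in the 4 group means. The ratio of decorin to fibromodulin within a library, which needs no scaling between libraries, was 2.95, 4.42 and 2.51 in control and 7.09, 8.70 and 7.12 in Smad7-KO libraries, and 2.79 to 3.07 against 7.83 to 8.45 with TGF-β1. For this ratio, both genes of which were already called in these data, all 6 Smad7-KO libraries lay above all 6 control libraries. The ratios of decorin to Prelp (0.660 to 1.30 against 1.05 to 1.30) and to biglycan (0.162 to 0.288 against 0.282 to 0.323) overlapped without stimulation. With TGF-β1 they stood apart (0.748 to 0.867 against 1.22 to 1.26, and 0.167 to 0.177 against 0.268 to 0.289). The ratio of fibromodulin to its neighbour Prelp was 0.256 to 0.294 in control and 0.148 to 0.150 in Smad7-KO libraries, and 0.268 to 0.282 against 0.144 to 0.159 with TGF-β1. With 3 libraries against 3, a two-sided exact permutation test of a single ratio cannot go below p = 0.1.

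**Figure D3:**
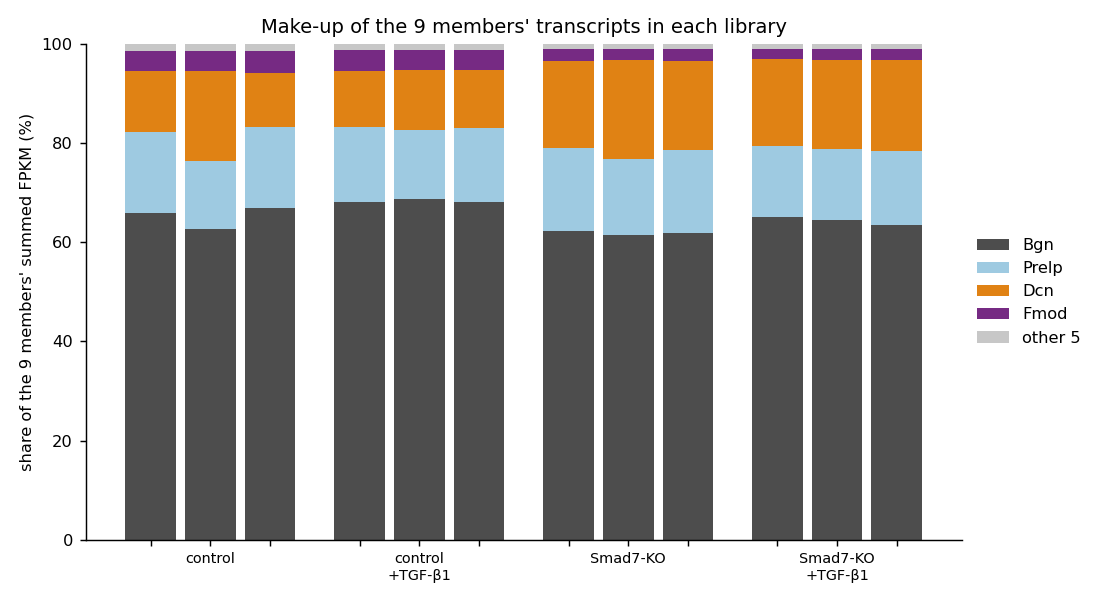
Share of the 9 members' summed FPKM (vertical, %) taken by biglycan, Prelp, decorin, fibromodulin and the other 5 members in each of the 12 libraries (1 bar each, grouped by condition). The decorin segment averages 18.4% in unstimulated Smad7-KO against 13.7% in control libraries, and the fibromodulin segment 2.42% against 4.19%. For decorin, unstimulated control library 2 (18.0%) lies within the range of the unstimulated Smad7-KO libraries.

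The genes of each chromosomal cluster were compared with their neighbours. On chromosome 13, the 4 genes Ecm2, asporin, osteomodulin and osteoglycin were all lower in Smad7-KO cells in both comparisons. Ecm2, a matrix protein with leucine-rich repeats, had log2 fold changes of −1.11 (adjusted p = 0.00335) and −0.82 (adjusted p = 0.0182). Osteomodulin, a keratan sulfate proteoglycan of mineralized tissue, had −1.27 (adjusted p = 0.0405) and −2.71 (adjusted p = 0.00343), on 32 to 38 counts in control against 7 to 21 and 3 to 8 counts in Smad7-KO libraries. The Ecm2 calls held in 22 and 16 of 23 alternatives and those of osteomodulin in 9 and 23. Versican, on the same chromosome but outside this cluster, was not lower.

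On chromosome 10 decorin and lumican were both higher. Keratocan had 0 counts in all 12 libraries, which allows up to 0.118 to 0.157 CPM in a library (3 counts, counting error only), and epiphycan had 0 to 9 counts. On chromosome 1 fibromodulin was lower, and its neighbours Prelp and opticin (0 to 23 counts, log2 −1.55 and −0.92, adjusted p = 0.0877 and 0.321) did not pass the test.

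**Figure D4:**
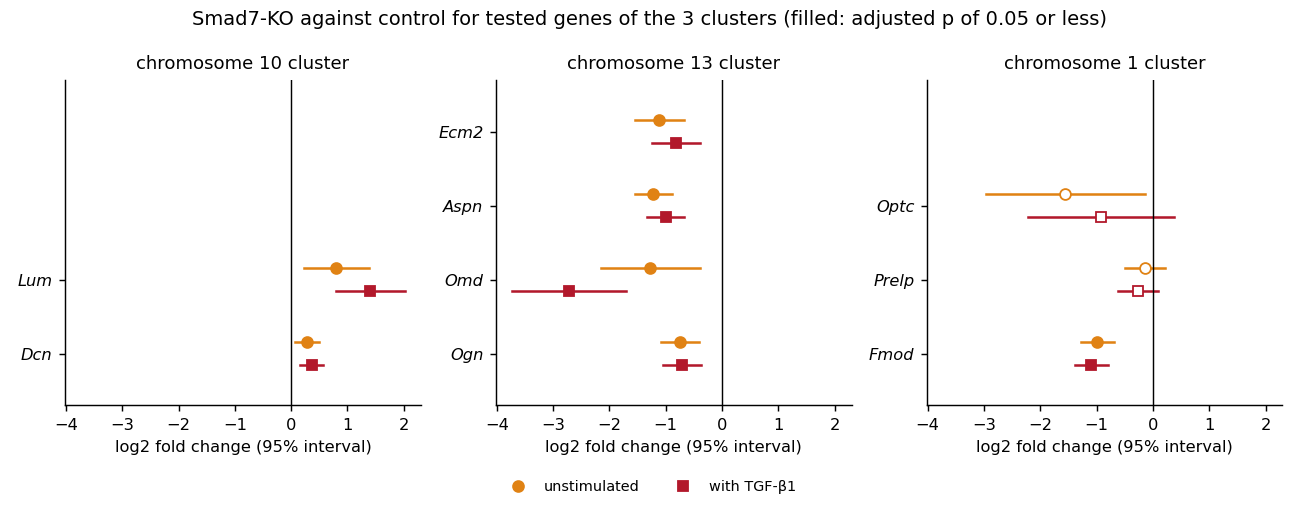
Log2 fold change (horizontal, with 95% interval) of Smad7-KO against control for the tested genes of the 3 chromosomal clusters, with filled symbols where the adjusted p was 0.05 or less. All 4 genes of the chromosome 13 cluster lie below 0, and decorin and lumican of the chromosome 10 cluster lie above 0.

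TGF-β1 was compared with no stimulation to ask whether these matrix genes respond within hours. In control cells 0 of 9 members passed the test, against 5.04% of all tested genes called higher and 3.33% called lower. Only lumican did not overlap between the groups, 1 of 9 members against 19.8% of all tested genes. Unadjusted p-values under 0.05 were found for lumican and versican, whose 95% intervals left out 0. DESeq2 also called 0 in control cells. In Smad7-KO cells 0 of 9 passed in edgeR, against 5.33% called higher and 4.90% called lower, and asporin had an unadjusted p under 0.05. On only the 6 libraries of that comparison DESeq2 called 1 (podocan) and edgeR 2 (asporin and podocan). Asporin, podocan and Prelp did not overlap, 3 of 9 members against 39.0% of all tested genes. The median log2 fold change of the members was +0.03 in control and +0.01 in Smad7-KO cells, against −0.03 and −0.01 over all tested genes.

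For the abundant members the intervals included 0, and they were narrowest for decorin. Biglycan went from a mean of 3899 to 4369 CPM in control cells (log2 +0.16, 95% interval −0.15 to 0.48) and from 3237 to 3479 CPM in Smad7-KO cells (log2 +0.10, 95% interval −0.21 to 0.42). Decorin had log2 differences of −0.08 (95% interval −0.28 to 0.13) and +0.01 (95% interval −0.20 to 0.22). Fibromodulin had +0.03 (95% interval −0.27 to 0.32) and −0.08 (95% interval −0.37 to 0.22). Prelp had 0.00 (95% interval −0.36 to 0.36) and −0.12 (95% interval −0.49 to 0.24). Osteoglycin had −0.24 (95% interval −0.58 to 0.09) and −0.20 (95% interval −0.54 to 0.13). Both missed the threshold as well. In control cells single unstimulated libraries moved these values: without library 2 the log2 difference was +0.0083 for Bgn and −0.38 for Ogn, and without library 3 it was +0.31 for Bgn and −0.08 for Ogn, none of them called.

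The larger values were found in low members. Versican had a log2 difference of +0.67 (95% interval 0.08 to 1.25, adjusted p = 0.178, edgeR) in control cells, with library 2 of the stimulated group below the highest unstimulated library. Without control library 3 it was +1.02 (adjusted p = 0.011), and with the length trend removed it was also called. In Smad7-KO cells it was +0.29 (95% interval −0.28 to 0.87, adjusted p = 0.669). Lumican had −0.71 (95% interval −1.35 to −0.08, adjusted p = 0.182) in control cells, on 10 to 14 counts against 14 to 22. Asporin (+0.38, adjusted p = 0.179) and podocan (+0.44, adjusted p = 0.262) were higher in each stimulated Smad7-KO library than in each unstimulated one, and fell short of the threshold.

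Whether the response to TGF-β1 differed with Smad7 loss was tested by the interaction. No member passed (0 of 9, smallest adjusted p = 0.98, edgeR, with 0 at an unadjusted p under 0.05 and 0 by DESeq2), against 0.0198% of all tested genes. The interaction of versican was −0.37 (95% interval −1.19 to 0.45) and that of lumican +0.61 (95% interval −0.23 to 1.45), so the data leave a wide range for these members. The interval was narrowest for decorin (−0.21 to 0.38).

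The enzymes that build the members' sugar chains and the proteases that cut versican were read from lists of pathway genes. Whether these lists and the core proteins responded differently to TGF-β1 was not tested, and the counts stand beside the 5.04% and 5.33% of all tested genes that rose and the 3.33% and 4.90% that fell. Of 7 linker enzymes 2 rose in each cell type. B4galt7, a galactosyltransferase of the linker that joins the chains to the core protein, rose by 0.72 and 0.94 on the log2 scale (control and Smad7-KO, adjusted p = 0.00749 and 0.00101). Xylt1, which adds the initial xylose, rose by 2.40 and 2.08 (adjusted p = 0.0382 and 0.045), with 16 to 142 counts in control libraries, and these calls held in 7 and 12 of 23 alternatives.

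Of 15 tested chondroitin and dermatan sulfate enzymes 5 rose and 1 fell in control cells, and 3 rose and 2 fell in Smad7-KO cells. Chsy1, a chondroitin synthase, rose by 1.15 and 1.29 (adjusted p = 0.0012 and 0.000492), and Chst11, a chondroitin 4-O-sulfotransferase, by 1.18 and 0.91 (adjusted p = 0.00752 and 0.0263). Chst7 fell by 0.87 and 0.72 (adjusted p = 0.00791 and 0.0233). The calls of Chst11 and Chst7 each held in 22 of 23 alternatives in control cells, and in 16 and 17 in Smad7-KO cells. Of 4 tested keratan sulfate enzymes 2 rose in each cell type: Chst1, a keratan sulfate sulfotransferase, by 1.71 and 2.13, and B3gnt7 by 1.19 and 1.00.

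Of 5 tested versican-cleaving proteases 2 fell in control and 3 in Smad7-KO cells. Adamts5 fell from a mean of 675 to 282 CPM in control cells, and from 663 to 276 CPM with Smad7 loss (log2 −1.26 and −1.26, adjusted p = 0.000132 and 9.92e-05, edgeR). Adamts1 fell by 1.18 and 1.26 (adjusted p = 0.00262 and 0.00135). Adamts9 passed in Smad7-KO cells (log2 −1.04, adjusted p = 0.0289), a call that held in 16 of 23 alternatives. In control cells Adamts9 had −0.84 (adjusted p = 0.0895). The other 2 listed genes had positive values that did not pass: Adamts4 (+0.98, adjusted p = 0.0851, and +0.42, adjusted p = 0.541, with groups apart in both cell types) and Adamts20 (+0.35 and +0.48), named with their values known. Of 8 versican partners 2 rose in control and 1 in Smad7-KO cells, among them the hyaluronan receptor Cd44 (+0.49, adjusted p = 0.046) in control cells, called in 6 of 23 alternatives. The hyaluronan synthase Has2 also rose (+1.78 and +1.74, adjusted p = 0.00797 and 0.0072), and is named after its values were seen, since its average level lay below the limit of the rule. Of 8 tested other leucine-rich proteoglycans 1 rose, tsukushi (Tsku, +1.00 and +0.75, adjusted p = 0.000172 and 0.0011).

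**Figure D5:**
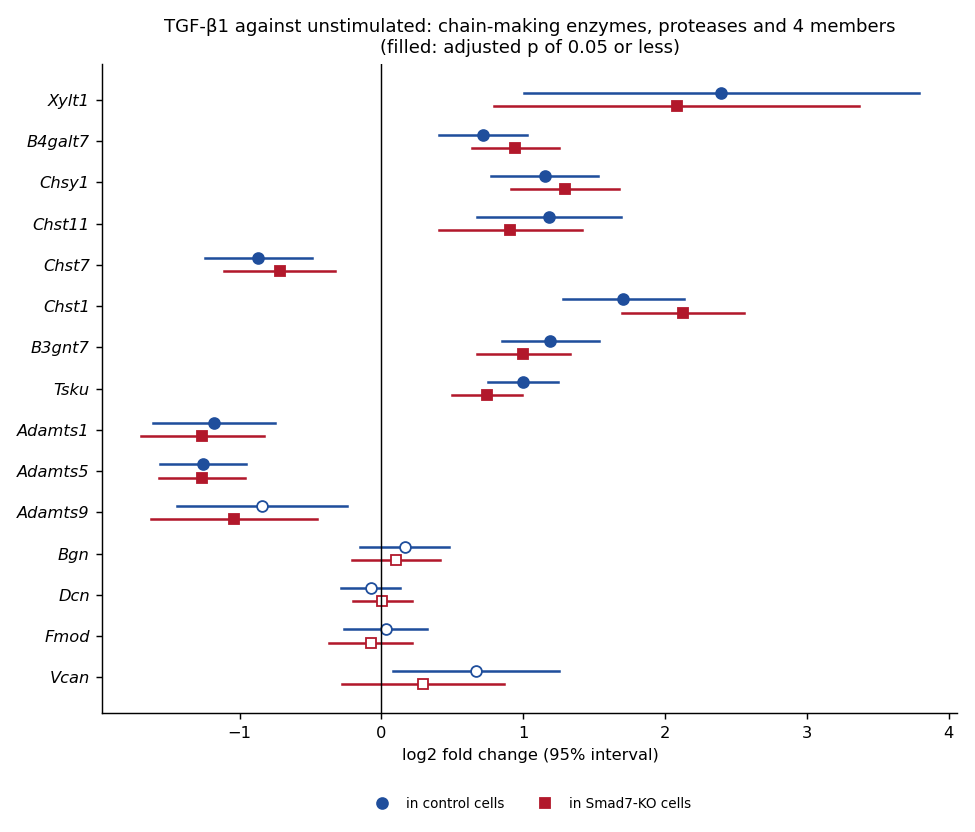
Log2 fold change (horizontal, with 95% interval) of TGF-β1 against unstimulated for enzymes of the sugar chains, tsukushi, 3 of the 5 tested versican-cleaving proteases and 4 members, in control and Smad7-KO cells, with filled symbols where the adjusted p was 0.05 or less. The plotted enzymes other than Chst7 lie right of 0, the 3 plotted Adamts genes lie left of 0 (Adamts4 and Adamts20, not plotted, had positive values that did not pass), and the 4 members are not filled.

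The same lists were read for Smad7 loss, beside the 12.1% and 5.72% of all tested genes that rose and the 13.7% and 7.23% that fell. Of 15 chondroitin and dermatan sulfate enzymes 3 rose and 4 fell without stimulation, and 1 rose and 3 fell with TGF-β1. Chpf, a chondroitin polymerizing factor, fell by 0.85 and 0.68 and Chst7 by 0.95 and 0.80, whereas Csgalnact1 rose by 0.47 (adjusted p = 0.0494) and 0.71 (adjusted p = 0.0133). Chst11 (+0.80) and Chst15 (+0.66, named with its value known) also rose without stimulation. The Chst11 call held in 16 of 23 alternatives. Of 4 keratan sulfate enzymes 1 rose (B3gnt7, +0.70 and +0.51) and 1 fell (B4galt4, −0.62 and −0.49). With TGF-β1 the call of B3gnt7 held in 9 of 23 alternatives and that of B4galt4 in 16, against 21 and 22 without stimulation. Of 7 linker enzymes 1 rose without stimulation (Xylt1, +1.97, adjusted p = 0.0432, called in 9 of 23 alternatives). The versican-cleaving proteases did not pass in either comparison, with smallest adjusted p-values of 0.0894 and 0.308 (edgeR).

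Of 5 tested proteases that process leucine-rich proteoglycans 1 rose and 2 fell in both Smad7-KO comparisons. Over all tested genes 12.1% rose and 13.7% fell without stimulation, and 5.72% and 7.23% with TGF-β1. Mmp2, which cuts several of these core proteins, fell by 0.67 and 0.77, Tll1, a tolloid-like protease, fell by 1.45 and 1.56, and Mmp3 rose by 0.72 and 0.84. The Mmp3 calls held in 14 and 17 of 23 alternatives. Of 8 fibrillar and fibril-associated collagens, the partners of the members in the fibril, 1 rose without stimulation (Col14a1, +1.43, adjusted p = 0.00286, edgeR). That is near the 12.1% of all tested genes. With TGF-β1 1 rose (Col14a1, +1.41) and 2 fell (Col11a1, −0.86, and Col5a2, −0.63). The calls of Col11a1 and Col5a2 held in 17 and 16 of 23 alternatives.

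Across the 12 libraries the levels of the members were correlated with each other in both directions, as a description of libraries that share their groups. Fibromodulin had a Pearson r of 0.93 with osteoglycin and 0.92 with asporin, and −0.96 with decorin and −0.84 with lumican (log2 CPM, n = 12). Decorin and lumican had an r of 0.84. Among 12061 other genes whose log2 CPM averaged 1 or more, the genes most like fibromodulin were Spns2 (r = 0.99), Fkbp9 and Hs6st2, those most like asporin Dkk3 (r = 0.98), Pcsk5 and Eng, and those most like osteoglycin Sema3e (r = 0.98), Enpp5 and Arhgap44. Decorin was most like Trim5 (r = 0.97), Sdcbp and Zfp120, and lumican most like Cln3 (r = 0.96), Hsdl1 and Aldoc. Biglycan was most like Sulf1 (r = 0.98), Capn2 and Adamtsl3, Prelp most like Abat (r = 0.97), Caskin2 and Kif1c, podocan most like Hsph1 (r = 0.95), Bai2 and Ggcx, and versican most like Smg8 (r = 0.99), Tlr13 and Stag1.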

How the data were processed

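For each gene the authors deposited raw counts and FPKM values, which are scaled to gene length and library size, for 12 libraries made with a poly-A kit and sequenced as paired 100-base reads. The submitters' processing notes name TopHat2 2.0, HTSeq 0.6.1, Cufflinks 2.1.1 and the build GRCm38.p6. Here counts were filtered with filterByExpr (minimum count 10), scaled by TMM and fitted with edgeR 4.0.16 in R 4.3.3 (quasi-likelihood, robust, all 12 libraries), with Benjamini-Hochberg adjusted p-values over all 15150 tested genes and a threshold of 0.05. Standard errors were derived from each coefficient and its F value, and CPM are TMM-normalized. Columns without a sample: 0. Totals were 19056916 to 25371321 counts a library. The bound given for keratocan covers counting error only. Intervals on log2 values were computed from the standard errors of the fit, which include the spread between libraries.

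The 9 members and the gene lists were chosen with earlier results of these data known. The text names all members. For each list and comparison it names at most 3 called genes with the largest change and an average log2 CPM of at least 1. Listed neighbours of a member are also named. For some genes picked in a single comparison, the value in its counterpart is also given, outside this rule and without alternatives run. Among them are Pecam1, Gpc4 and Csgalnact1 for unstimulated Smad7 loss, and Sdc2 for Smad7 loss with TGF-β1. Of the members 7 had a RefSeq promoter entry. Alternatives were DESeq2 1.42.0, limma 3.58.1 on log2(FPKM + 1) and log2(FPKM + 0.1), other scaling, no filter, the comparison's libraries only, the replicate number as a block, a loess removal of the trend on gene length (span 0.3) and leaving out each library. Leaving out libraries outside the comparison, and alternatives for genes other than the members, were added after the data were seen. The procedures were tested on simulated counts.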

Additional observations from a re-analysis of the deposited data

How the results depend on the processing

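Fibromodulin and asporin were called in both Smad7-KO comparisons under all 23 alternatives. For unstimulated Smad7 loss 4 members (DESeq2) and 2 (edgeR) were called in place of 7 when only the comparison's libraries were fitted. Leaving out single libraries gave 3 to 7, with 3 without control library 1 or any unstimulated Smad7-KO library. It gave 4 without control library 3, TGF-β1-treated control library 3 or TGF-β1-treated Smad7-KO library 1 or 3. Only the fit without control library 2 gave 7. There biglycan and Prelp passed as lower (edgeR, adjusted p = 0.00691 and 0.0332), and lumican and versican did not pass. Decorin was called in 0 of 6 fits without a library outside the comparison. No fit with a library left out called the same 7 members as reported. In TGF-β1-treated cells DESeq2 on only the comparison's libraries called 8 in place of 5, and leaving out libraries gave 3 to 7, with 3 without Smad7-KO library 2 or 3. For TGF-β1 in control cells 1 member (versican) was called in place of 0 with the length trend removed, and 0 to 1 with libraries left out (1 without control library 3). In Smad7-KO cells 1 (DESeq2) and 2 (edgeR) were called in place of 0 on only the comparison's libraries. The causes were not tested.

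Small TGF-β1 differences changed sign. The log2 value of Dcn was 0.022 in control cells with the length trend removed, and −0.028 in Smad7-KO cells in each of the 3 limma fits. That of Prelp in control cells was −0.0072 (DESeq2), −0.0034 (edgeR on the comparison's libraries), −0.0088 (DESeq2 size factors) and −0.043 (length trend removed). With single libraries left out, values in control cells were −0.19 to 0.17 for Prelp, −0.12 to 0.18 for Fmod and −0.16 to 0.23 for Podn, and in Smad7-KO cells −0.025 to 0.063 for Dcn and −0.27 to 0.011 for Lum. The Prelp value for Smad7 loss without stimulation was −0.33 to 0.030.

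Replicate numbers were shared between groups, and the labels do not say whether equal numbers mark a shared culture. The correlation of deviations from the group means was over 0.1 in 8 of 18 same-numbered pairs (−0.61 to 0.76). Deviations from a mean of 3 libraries depend on each other, so these values cannot decide whether libraries were paired. With the replicate block 5 members were called for unstimulated Smad7 loss, 5 with TGF-β1 and 0 for TGF-β1 in either cell type and the interaction. With the block and the length trend removed these were 6, 5, 1 (versican, control cells), 0 and 0, and the TGF-β1 values in control cells were 0.021 for Dcn and −0.033 for Prelp.

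Over all genes, calls ranged over the alternatives from 660 (edgeR on the comparison's libraries) to 7979 (without control library 3) for unstimulated Smad7 loss (3907 as reported), from 883 to 4605 with TGF-β1 (1962), from 391 to 3449 for TGF-β1 in control cells (1268) and from 985 to 3792 in Smad7-KO cells (1550). The share of higher calls for Smad7 loss with TGF-β1 was 44.1%, 30% to 33% in the limma fits, 50.1% with DESeq2 size factors, 51.2% (edgeR) and 52.9% (DESeq2) on only the comparison's libraries and 52.9% with DESeq2 on all. Lumican and osteomodulin rest on few counts, and 3 libraries a group limit all other members.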

Other observations

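Proteoglycans of the cell surface carry their chains on membrane-bound core proteins. With Smad7 loss 5 of 11 tested genes fell without stimulation and 4 with TGF-β1, against 13.7% and 7.23% of all tested genes, and the others did not pass. The sign of the log2 value was positive for 5 and 4 of the 11. Glypican-3 (Gpc3) fell by 2.39 and 1.44 on the log2 scale (adjusted p = 0.00107 and 0.0153, edgeR) and glypican-4 (Gpc4) by 0.57 and 0.71 (adjusted p = 0.00912 and 0.0038). Syndecan-2 (Sdc2) fell by 0.59 and 0.51 (adjusted p = 0.00235 and 0.00645). Cspg4, the chondroitin sulfate proteoglycan NG2 and a marker of pericytes, fell by 1.79 and 1.55 (adjusted p = 0.00453 and 0.00651). It rose with TGF-β1 by 1.31 in control and 1.55 in Smad7-KO cells (adjusted p = 0.0162 and 0.0112). These TGF-β1 calls held in 20 and 17 of 23 alternatives. Of 7 tested other matrix proteoglycans 1 fell in both comparisons: Esm1, a dermatan sulfate proteoglycan made by endothelial cells, by 1.31 and 0.88 (adjusted p = 0.000234 and 0.00276). Endothelial genes summed to 278 to 332 CPM in control and 46.3 to 58.6 CPM in Smad7-KO libraries, and their part in these results was not tested.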
